A study of Mus musculus with 24 samples.

Results

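The experiment asked which part of the response to interferon-gamma (IFN-gamma) of detached ovarian cancer cells needs the IFN-gamma receptor. It rests on 12 of the 24 RNA libraries of the series, those grown in ultra-low attachment (ULA) wells, where cells cannot adhere. All cells were ID8 p53-/-, a mouse ovarian cancer line that lacks p53 in both genotypes. The Ifngr1-KO line was edited in Ifngr1, and the line labelled sgNTC carries a non-targeting control guide. The 4 groups, with 3 libraries each, were Ifngr1-KO cells with IFN-gamma, Ifngr1-KO cells with PBS, sgNTC cells with IFN-gamma and sgNTC cells with PBS. Recombinant mouse IFN-gamma at 100 ng/ml, or the PBS vehicle, was added 24 hours after seeding, and cells were harvested 24 hours later. The labels call the 3 libraries of a group biological replicates without saying how the cultures were separated, so p-values measure the spread between these samples. Each genotype is 1 line, so any other difference between the lines goes with the genotype, and the submitters took dead cells out of the ULA samples ahead of RNA extraction. The quantity tested for each gene was the interaction, which is the log2 fold change of IFN-gamma over PBS in Ifngr1-KO cells minus the same log2 fold change in sgNTC cells. A negative interaction means a smaller rise, or a larger fall, in Ifngr1-KO cells.

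IFN-gamma binds a receptor built from the chains IFNGR1, which holds the ligand, and IFNGR2. The kinases JAK1 and JAK2 on these chains act through STAT transcription factors, whose dimers bind GAS elements in DNA and switch on genes such as Irf1. IRF1, and the STAT complex with IRF9 best known from type I interferon, act at ISRE elements. The genes so induced include antigen-presentation genes, the GTPases that attack vacuoles of intracellular parasites, antiviral effectors and the checkpoint ligand PD-L1, encoded by Cd274.

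The 12 libraries held 37063763 to 63154942 counts, and 14622 genes were tested. Ifngr1 mRNA was lower in the edited line, at 13.3, 14.4 and 13.8 CPM (counts scaled to library size) in IFN-gamma and 14.4, 14.2 and 15.5 CPM in PBS libraries of Ifngr1-KO cells, against 35.5, 33.96 and 35.7 CPM in IFN-gamma and 31.7, 37.5 and 37.7 CPM in PBS libraries of sgNTC cells. The libraries of the lines did not overlap, and those of the line labelled Ifngr1-KO were the lower. This is a count over the whole gene, and does not show which part was edited. Of 14 epithelial and mesothelial markers 12 were tested, and their summed level was 6920 to 7780 CPM over the Ifngr1-KO libraries and 4280 to 5100 CPM over the sgNTC libraries, with Epcam at 0 in all 4 groups. Lymphocyte markers summed to at most 0.651 CPM and erythroid markers to less than 1 CPM in every library, with Cd3e and the haemoglobins at 0. Macrophage markers summed to 24.8 to 35.9 CPM over the Ifngr1-KO libraries, against 16.6 to 19.9 CPM over those of sgNTC cells. Endothelial markers summed to 83.9 to 96.1 CPM over the Ifngr1-KO and 43.6 to 51.2 CPM over the sgNTC libraries, without overlap. For fibroblast and pericyte markers the sums were 97.6 to 103 CPM and 109 to 123 CPM in the same order. The Ifngr1-KO libraries had 3.31% to 3.87% of their counts in mitochondrial genes, and the sgNTC libraries 5.09% to 6.12%. The part of these values in the interaction was not tested. IFN-gamma replicate 2 of the Ifngr1-KO line stood apart from its group. It lay at -46.3 on the second principal component of the 12 libraries, where the others lay between -6.06 and 18.4, and that component held 5.01% of the variance. IFN-gamma replicate 2 of the sgNTC line had the lowest level of its group for 40 of the 45 interferon genes described next. The main counts are therefore also given without these libraries.

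The interaction was called at an adjusted p under 0.05 (edgeR's quasi-likelihood test, adjusted by Benjamini-Hochberg over all tested genes) for 195 genes, 1.33% of those tested. It was negative for 116 (0.793%) and positive for 79 (0.54%). These shares of all tested genes are the background for the counts of called genes given for each list below. The negative calls were led by interferon-inducible genes, of which 45 belonged to 11 lists of interferon pathway genes, and the positive calls held 1 member of these lists. Over the 45, the median interaction was -1.19, the median response was -0.01 in Ifngr1-KO cells and 1.29 in sgNTC cells. All 45 had a called response in sgNTC cells, and the interaction counts these same libraries. In bulk RNA, fewer cells that respond and less RNA per cell cannot be told apart. The other 71 negative calls were smaller, with a median interaction of -0.43, a median response of -0.15 in Ifngr1-KO and 0.26 in sgNTC cells. The 79 positive calls had a median interaction of 0.37, a median response of 0.13 in Ifngr1-KO and -0.22 in sgNTC cells. The median interaction of all tested genes was 0.01.

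IFN-gamma against PBS within the Ifngr1-KO line gave 0 called genes by edgeR's quasi-likelihood test (0.0%). In that comparison 1103 genes (7.54%) had an unadjusted p under 0.05, DESeq2 called 1 gene, and edgeR called 5 when IFN-gamma replicate 2 was left out. In the sgNTC line the same comparison gave 300 called genes (2.05%), 192 higher (1.31%) and 108 lower (0.739%), but 166 without IFN-gamma replicate 2 and 127 without PBS replicate 2. Of the 165 tested members of the interferon lists, all 3 IFN-gamma libraries lay above all 3 PBS libraries for 10 in Ifngr1-KO cells (6.06%), where 7.52% of all tested genes did so, and below them for 6, where 4.79% of all tested genes did so. In sgNTC cells they lay above them for 112 (67.9%), where 10.2% of all tested genes did so. The plot of both responses colours called genes only. In it the 45 called interferon genes spread along the axis of sgNTC cells, with a median of -0.01 on the axis of Ifngr1-KO cells. They were chosen by the difference between these axes, and Psmb9 among them lay at -2.12 in Ifngr1-KO cells.

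**Figure D1:**
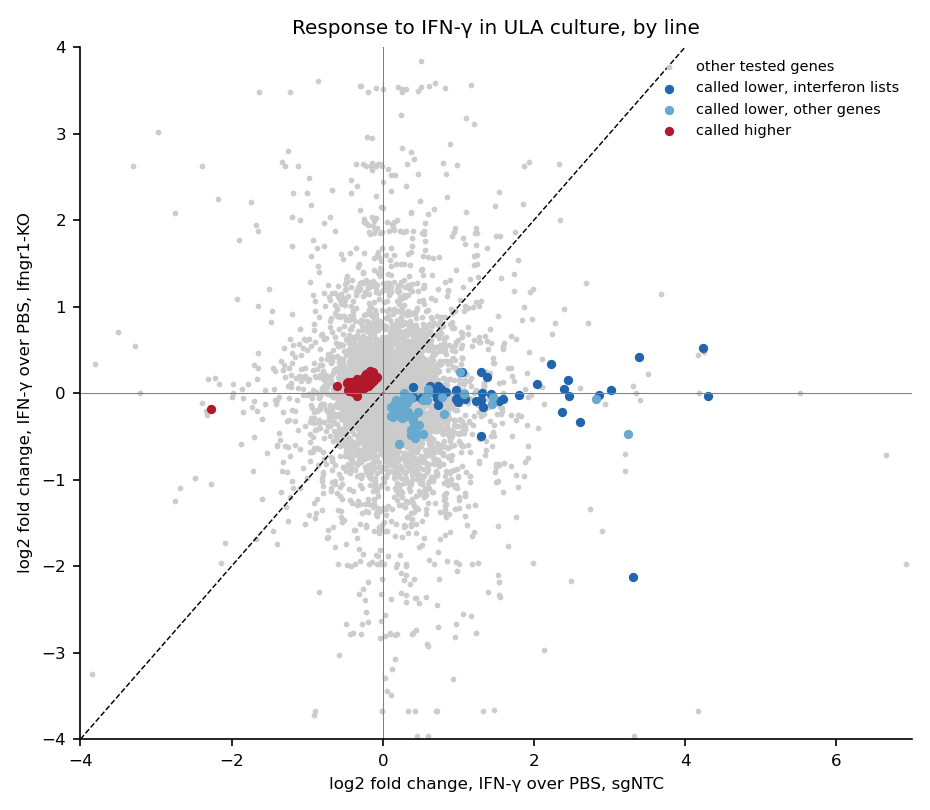
Log2 fold change of IFN-gamma over PBS in ULA culture, in Ifngr1-KO cells (vertical axis) and sgNTC cells (horizontal axis), with 1 point for each tested gene; colours mark the 195 called genes, the dashed line marks equal responses, and 44 genes outside the axes are not drawn. The 45 called interferon genes have a median response of -0.01 in Ifngr1-KO cells and 1.29 in sgNTC cells.

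None of the 14 tested genes of the receptor, its kinases and feedback inhibitors had a called interaction, and their median was 0.05. Jak2, the kinase on the IFNGR2 chain, was at 161, 159 and 148 CPM in IFN-gamma and 157, 159 and 154 CPM in PBS libraries of Ifngr1-KO cells, against 146, 137 and 140.0 CPM in IFN-gamma and 134, 135 and 126 CPM in PBS libraries of sgNTC cells. Its interaction was -0.10 ± 0.07, with a 95% interval of -0.25 to 0.05. Jak1, the kinase on the IFNGR1 chain, had an interaction of 0.05 ± 0.07 (adjusted p = 0.843), and Ptpn11, a phosphatase of the pathway, one of 0.12 ± 0.07 (adjusted p = 0.49). Ifngr2, the signalling chain, had an interaction of 0.09 ± 0.09 (adjusted p = 0.746), and Ifngr1 one of -0.07 ± 0.12 (adjusted p = 0.863). Ifngr1 thus differed in level between the lines, with no called change in either line on IFN-gamma. The most negative value of the list, -0.97, did not pass and belonged to Socs1, a feedback inhibitor named here after its values were seen, whose highest library was at 1.18 CPM.

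Among transcription factors of the STAT and IRF families, 5 of 14 tested genes had a called negative interaction and 0 a positive one, with a list median of -0.37. Irf1 had the smallest adjusted p of all tested genes. This early target of the pathway, itself a transcription factor, lies at chr11:53770014-53778374 (GRCm38, plus strand) and was at 55.05, 56.9 and 54.97 CPM in IFN-gamma and 54.1, 53.7 and 59.8 CPM in PBS libraries of Ifngr1-KO cells, against 152, 102 and 139 CPM in IFN-gamma and 49.95, 49.2 and 46.05 CPM in PBS libraries of sgNTC cells. The 3 sgNTC libraries with IFN-gamma lay above the other 9 libraries, and the Ifngr1-KO libraries of both treatments overlapped. The interaction was -1.44 ± 0.13 (adjusted p = 1.83e-07), made of a response of -0.01 (95% interval -0.19 to 0.18) in Ifngr1-KO and 1.44 in sgNTC cells.

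Stat2, a subunit of the complex that binds ISRE elements, was at 20.9, 18.2 and 22.3 CPM in IFN-gamma and 22.6, 21.4 and 21.4 CPM in PBS libraries of Ifngr1-KO cells, against 119, 95.5 and 127 CPM in IFN-gamma and 48.6, 42.8 and 47.5 CPM in PBS libraries of sgNTC cells. All 3 sgNTC libraries with IFN-gamma were again the highest, and the PBS libraries of the lines already differed without overlap. Its interaction was -1.38 ± 0.14 (adjusted p = 1.28e-06). Irf9, the DNA-binding subunit of that complex, had an interaction of -0.81 ± 0.15 (adjusted p = 0.00246). Irf7, which amplifies type I interferon, was called too, at -1.16 ± 0.26 (adjusted p = 0.0213), but its adjusted p reached 0.0752 with 1 ULA library left out. Stat3, Stat6 and Irf2, the uncalled members with the highest mean CPM, had interactions of -0.01, 0.21 and -0.21.

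The promoters of 5 of the called genes with the smallest adjusted p are printed here because each holds letters that STAT dimers or IRF factors are known to bind. They run from 250 bases before to 50 after the start of the gene, 5′ to 3′ on the gene's strand, and come from RefSeq on GRCm38.p6. Capitals mark each match to the GAS letters TTCNNNGAA or to the ISRE letters, which are GAAA, any 2 bases and GAAA, searched on both strands, so that an ISRE on the other strand reads TTTC, 2 bases and TTTC. Irf1 and Samhd1, an enzyme that degrades DNA building blocks and restricts viruses, hold 1 GAS match each. Stat2 and Erap1, a peptide trimmer of the class I pathway, hold 1 ISRE match each, and Irgm1, an interferon-inducible GTPase, holds 2 that overlap.
Irf1 (chr11:53769764-53770063, plus strand): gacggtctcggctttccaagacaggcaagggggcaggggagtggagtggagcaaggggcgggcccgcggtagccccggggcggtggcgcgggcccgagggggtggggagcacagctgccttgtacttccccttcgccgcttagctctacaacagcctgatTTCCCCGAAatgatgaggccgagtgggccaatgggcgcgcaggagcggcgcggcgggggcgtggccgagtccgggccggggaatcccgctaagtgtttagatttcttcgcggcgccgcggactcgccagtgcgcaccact
Stat2 (chr10:128270248-128270547, plus strand): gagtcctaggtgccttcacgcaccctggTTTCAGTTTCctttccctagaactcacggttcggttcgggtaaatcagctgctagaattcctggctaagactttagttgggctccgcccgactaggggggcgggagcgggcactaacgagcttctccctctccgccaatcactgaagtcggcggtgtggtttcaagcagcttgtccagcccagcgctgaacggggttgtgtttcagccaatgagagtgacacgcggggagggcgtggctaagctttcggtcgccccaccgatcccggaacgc
Irgm1 (chr11:48871371-48871670, minus strand): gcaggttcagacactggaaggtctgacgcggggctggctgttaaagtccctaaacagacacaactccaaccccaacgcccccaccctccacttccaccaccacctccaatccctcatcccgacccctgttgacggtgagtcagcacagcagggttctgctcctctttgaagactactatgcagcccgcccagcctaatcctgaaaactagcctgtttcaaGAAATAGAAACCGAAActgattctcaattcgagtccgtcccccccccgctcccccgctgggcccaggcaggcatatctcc
Samhd1 (chr2:157135047-157135346, minus strand): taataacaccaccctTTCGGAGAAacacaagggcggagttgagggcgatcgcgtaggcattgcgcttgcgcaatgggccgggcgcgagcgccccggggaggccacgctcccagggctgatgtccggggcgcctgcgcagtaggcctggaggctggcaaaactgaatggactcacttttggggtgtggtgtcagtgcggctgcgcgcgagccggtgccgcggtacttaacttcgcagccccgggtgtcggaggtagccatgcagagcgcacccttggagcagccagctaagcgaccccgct
Erap1 (chr13:74639603-74639902, plus strand): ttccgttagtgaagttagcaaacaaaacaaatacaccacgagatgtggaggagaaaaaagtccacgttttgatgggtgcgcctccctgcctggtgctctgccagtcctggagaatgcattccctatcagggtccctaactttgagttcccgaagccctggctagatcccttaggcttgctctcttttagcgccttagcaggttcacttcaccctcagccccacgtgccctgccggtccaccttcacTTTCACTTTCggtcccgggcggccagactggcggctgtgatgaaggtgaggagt

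The GAS match of Irf1 begins at position -90 from the start of the gene, and the pair in Irgm1 at -30 and -24. The match of Erap1 begins at -4, while those of Stat2 and Samhd1 lie further upstream, at -222 and -235. Ifit2, Eif2ak2 and Ddx58 are called interferon genes whose promoters also held matches. A promoter was at hand for 88 of the 116 genes with a negative call, for 62 of the 79 with a positive call and for 10879 tested genes. A GAS match was found in 15.9% of promoters of negative calls and in 0.0% of those of positive calls, against 6.91% of all tested genes. An ISRE match was found in 23.9% of promoters of negative calls and in 1.61% of those of positive calls, against 3.08% of all tested genes. Within the negative calls, either match was found in 52.8% of 36 promoters of the interferon lists and in 15.4% of 52 promoters of other genes. Among the 27025 RefSeq promoters, 8.47% held a GAS and 3.49% an ISRE match. These shares describe letters in a short window and were not tested.

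**Figure D2:**
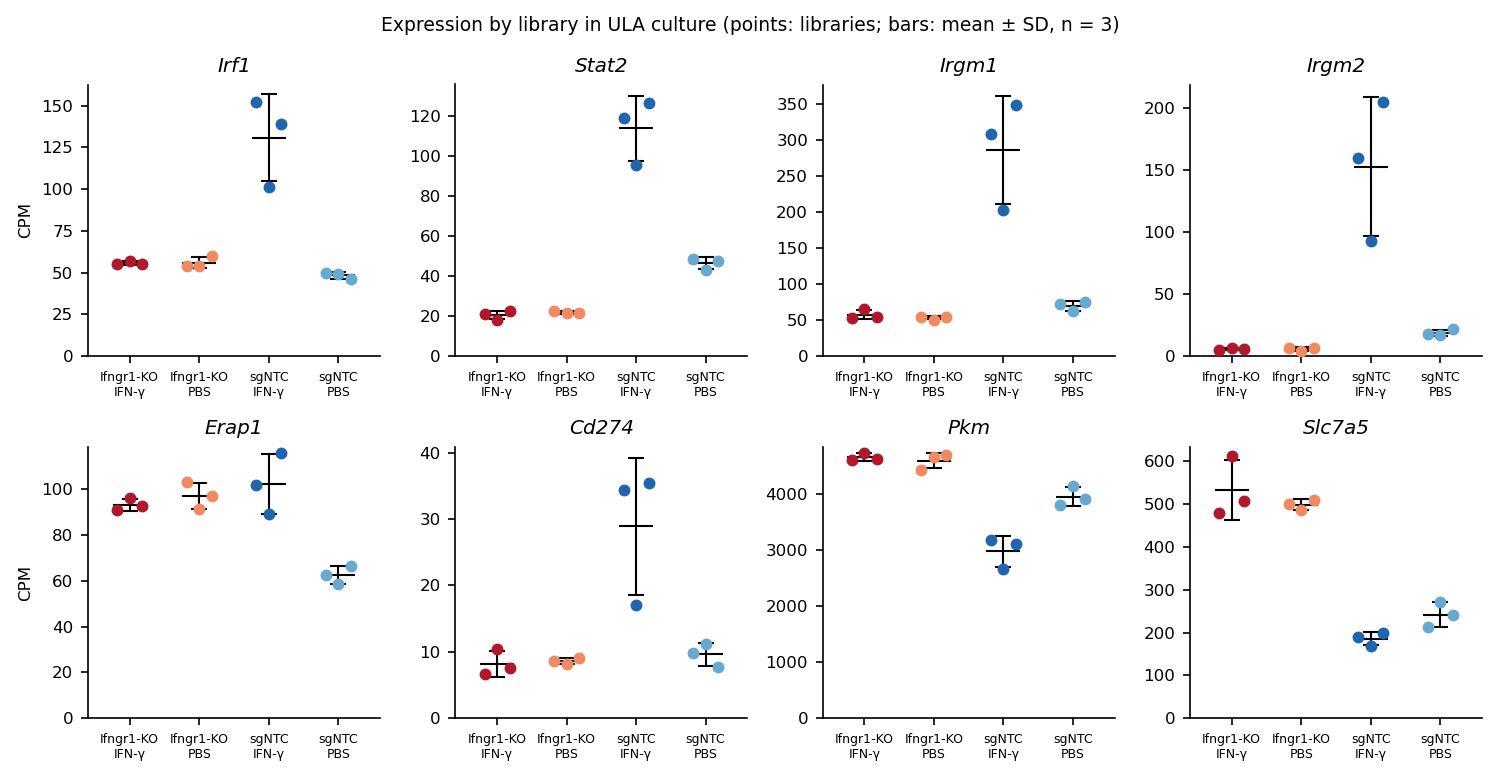
CPM in each ULA library for 8 genes, in Ifngr1-KO cells with IFN-gamma and with PBS and in sgNTC cells with IFN-gamma and with PBS; points are libraries and bars the mean and SD of 3. For Irf1, Stat2, Irgm1, Irgm2 and Cd274 the sgNTC libraries with IFN-gamma lie above all others, and for Pkm they lie below all others.

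The interferon-inducible GTPases had the most negative median interaction of the lists. Of 17 tested members, 10 had a called negative interaction, 0 a positive one, and the list median was -2.50. Irgm1, which acts against vacuoles of intracellular pathogens, was at 53.3, 65.3 and 54.2 CPM in IFN-gamma and 54.9, 50.5 and 54.9 CPM in PBS libraries of Ifngr1-KO cells, against 308, 203 and 348 CPM in IFN-gamma and 71.7, 61.98 and 75.05 CPM in PBS libraries of sgNTC cells. The 3 sgNTC libraries with IFN-gamma lay above the other 9, which overlapped between treatments in Ifngr1-KO cells. The interaction of Irgm1 was -1.93 ± 0.21 (adjusted p = 9.41e-05). Irgm2, its relative, was at 5.13, 6.53 and 5.43 CPM in IFN-gamma and 6.13, 3.73 and 6.72 CPM in PBS libraries of Ifngr1-KO cells, against 160.4, 93.3 and 205 CPM in IFN-gamma and 18.2, 16.8 and 21.6 CPM in PBS libraries of sgNTC cells. Its interaction was -2.98 ± 0.47 (adjusted p = 0.00341), and every Ifngr1-KO library lay below every sgNTC library. Igtp, another GTPase of this family, was at 2.98, 3.99 and 2.98 CPM in IFN-gamma and 3.08, 2.401 and 1.91 CPM in PBS libraries of Ifngr1-KO cells, against 115, 45.7 and 137 CPM in IFN-gamma and 9.12, 8.06 and 11.4 CPM in PBS libraries of sgNTC cells, with an interaction of -2.96 ± 0.55 (adjusted p = 0.0114). The annotated spans of Irgm2 (chr11:58199618-58222782) and Igtp (chr11:58199556-58207591) overlap on the plus strand, so reads of this pair may not be told apart.

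Ifi47 had the smallest adjusted p of the list, with an interaction of -2.59 ± 0.30 (adjusted p = 4.04e-05). It was at 8.16, 9.02 and 7.42 CPM in IFN-gamma and 9.599, 8.76 and 10.2 CPM in PBS libraries of Ifngr1-KO cells, against 54.8, 28.2 and 59.6 CPM in IFN-gamma and 9.695, 8.34 and 9.596 CPM in PBS libraries of sgNTC cells. Tgtp1 and Tgtp2, near-identical copies between which reads can be split, had interactions of -2.35 ± 0.40 and -3.71 ± 0.73. The guanylate-binding protein Gbp2, which coats pathogen vacuoles, was at 14.1, 18.9 and 15.99 CPM in IFN-gamma and 18.3, 15.2 and 16.7 CPM in PBS libraries of Ifngr1-KO cells, against 144, 67.2 and 158 CPM in IFN-gamma and 24.2, 20.2 and 22.3 CPM in PBS libraries of sgNTC cells. Its interaction was -2.50 ± 0.40 (adjusted p = 0.00375), from a response of -0.03 in Ifngr1-KO and 2.47 in sgNTC cells. Gbp6 was called with -2.95 ± 0.69 (adjusted p = 0.0302) and kept its call in 5 of 12 fits that each left out 1 ULA library. Gbp3 and Gbp9 completed the 10, with interactions of -1.90 and -1.19.

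The most negative fitted value of the list was not called. Iigp1, a GTPase of the same family, was at 0.0477, 0.157 and 0 CPM in IFN-gamma and 0.104, 0 and 0.204 CPM in PBS libraries of Ifngr1-KO cells, against 87.2, 17.7 and 123 CPM in IFN-gamma and 0.696, 1.08 and 0.435 CPM in PBS libraries of sgNTC cells. Its response in sgNTC cells was 6.66 ± 0.84 (adjusted p = 0.000647), but its interaction of -7.38 ± 3.83 (adjusted p = 0.42) rested on 8 counts in IFN-gamma and 12 counts in PBS libraries of Ifngr1-KO cells. DESeq2 called it, at an adjusted p of 0.00375. Gbp7 and Gbp4 had uncalled interactions of -1.50 ± 0.67 (adjusted p = 0.292) and -1.71 ± 0.53 (adjusted p = 0.105). Leaving out IFN-gamma replicate 2 gave 10 calls in the list for the Ifngr1-KO library and 11 for the sgNTC library, while leaving out PBS replicate 1 of the Ifngr1-KO line gave 6.

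In class I antigen presentation 7 of 20 tested genes had a called negative interaction and 0 a positive one, with a list median of -0.47. Psmb9, an immunoproteasome subunit that changes which peptides are cut, was at 0.0477, 0 and 0.119 CPM in IFN-gamma and 0.209, 0.511 and 0.102 CPM in PBS libraries of Ifngr1-KO cells, against 11.7, 6.68 and 15.3 CPM in IFN-gamma and 0.968, 1.404 and 1.04 CPM in PBS libraries of sgNTC cells. All 3 sgNTC libraries with IFN-gamma stood above the rest. The interaction of -5.43 ± 0.87 (adjusted p = 0.000724) was among the largest called, but the Ifngr1-KO libraries held only 8 counts with IFN-gamma and 32 counts with PBS, and the fitted, uncalled response of -2.12 ± 0.79 between these enters the value. Psmb10, also an immunoproteasome subunit, was at 28.8, 26.1 and 33.5 CPM in IFN-gamma and 27.8, 33 and 30.6 CPM in PBS libraries of Ifngr1-KO cells, against 65.6, 48.3 and 67.4 CPM in IFN-gamma and 31.3, 29.2 and 28.2 CPM in PBS libraries of sgNTC cells. It passed with -1.07 ± 0.16 (adjusted p = 0.000133), and here the PBS libraries of the lines overlapped. Erap1 was at 90.7, 96.04 and 92.5 CPM in IFN-gamma and 103, 91.5 and 97.01 CPM in PBS libraries of Ifngr1-KO cells, against 102, 89.3 and 116 CPM in IFN-gamma and 62.6, 58.4 and 66.4 CPM in PBS libraries of sgNTC cells. With IFN-gamma the libraries of the lines overlapped, while in PBS the Ifngr1-KO libraries lay above those of sgNTC cells, and the interaction was -0.77 ± 0.11 (adjusted p = 0.000113).

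Tap1, a subunit of the transporter that carries peptides to class I molecules, was at 1.17, 1.36 and 1.49 CPM in IFN-gamma and 1.59, 0.562 and 1.503 CPM in PBS libraries of Ifngr1-KO cells, against 65.2, 38.8 and 75.3 CPM in IFN-gamma and 11.99, 10.4 and 10.4 CPM in PBS libraries of sgNTC cells. It was called with -2.30 ± 0.54 (adjusted p = 0.0418), but kept its call in only 2 of 12 fits that each left out 1 ULA library, with values of -2.63 to -2.05. Tapbpl, a peptide editor, had an interaction of -0.83 ± 0.15 (adjusted p = 0.00261). B2m, the light chain of class I molecules, and Tapbp, a chaperone of peptide loading, were the other called members, with -0.93 ± 0.16 (adjusted p = 0.004) and -0.32 ± 0.08 (adjusted p = 0.0445). The class I heavy chain H2-D1 was at 176, 151 and 180.4 CPM in IFN-gamma and 147, 152 and 158 CPM in PBS libraries of Ifngr1-KO cells, against 238, 203 and 262 CPM in IFN-gamma and 182, 176 and 182 CPM in PBS libraries of sgNTC cells. It had a called response in sgNTC cells of 0.38 ± 0.09 (adjusted p = 0.033), while its interaction of -0.23 ± 0.13 (adjusted p = 0.463) did not pass. Nlrc5, the transactivator of class I genes, is named after its values were seen. It was at 0, 0 and 0 CPM in IFN-gamma and 0, 0.0766 and 0.0509 CPM in PBS libraries of Ifngr1-KO cells, against 9.83, 5.097 and 11.9 CPM in IFN-gamma and 0.832, 1.38 and 0.435 CPM in PBS libraries of sgNTC cells, with an interaction of -7.29 ± 1.92 (adjusted p = 0.0523). Calr and Pdia3, general folding helpers counted in this list, had interactions of 0.12 and -0.05. Without IFN-gamma replicate 2 the list had 5 calls for the Ifngr1-KO library and 9 for the sgNTC library.

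None of the 7 tested genes of the class II pathway was called, although their median was -1.97. Rfxap, Rfx5 and Rfxank, subunits of the constitutive class II promoter complex and the members with the highest mean CPM, had interactions of 0.16, -0.28 and -0.03. The values of Ciita, the inducible master regulator, and Cd74, the invariant chain, are given after they were seen. Ciita was at 0.215, 0.0787 and 0.0397 CPM in IFN-gamma and 0.104, 0.102 and 0.102 CPM in PBS libraries of Ifngr1-KO cells, against 6.12, 2.84 and 8.05 CPM in IFN-gamma and 0.650, 0.501 and 0.556 CPM in PBS libraries of sgNTC cells. Its response in sgNTC cells was 3.30 ± 0.47 (adjusted p = 1.91e-05), and its interaction -3.23 ± 0.91 (adjusted p = 0.0611). Cd74 was at 0.477, 0.210 and 0.436 CPM in IFN-gamma and 0.157, 0.204 and 0.153 CPM in PBS libraries of Ifngr1-KO cells, against 14.6, 4.098 and 18.9 CPM in IFN-gamma and 0.907, 0.682 and 1.402 CPM in PBS libraries of sgNTC cells, with an interaction of -2.53 ± 1.04 (adjusted p = 0.266). In both genes the sgNTC libraries with IFN-gamma lay above the other 9, and IFN-gamma replicate 2 was the lowest of the 3.

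Of 12 tested checkpoint ligands and immune regulators, 1 had a called negative and 1 a called positive interaction. Cd274, which encodes PD-L1, lies at chr19:29367455-29388095 (plus strand) and was at 6.68, 10.4 and 7.56 CPM in IFN-gamma and 8.58, 8.25 and 9.04 CPM in PBS libraries of Ifngr1-KO cells, against 34.4, 17.03 and 35.4 CPM in IFN-gamma and 9.88, 11.2 and 7.76 CPM in PBS libraries of sgNTC cells. The sgNTC libraries with IFN-gamma lay above the other 9 libraries, IFN-gamma replicate 2 again lowest. The response was -0.07 ± 0.28 in Ifngr1-KO and 1.59 ± 0.27 in sgNTC cells, and the interaction -1.66 ± 0.39 (adjusted p = 0.0423). The call was kept in 2 of 12 fits that each left out 1 ULA library, and the interaction ranged from -1.92 to -1.49 over them. Lgals3, encoding galectin-3, a glycan-binding protein, moved the other way. It was at 619, 649 and 686 CPM in IFN-gamma and 600.2, 599 and 603 CPM in PBS libraries of Ifngr1-KO cells, against 294, 228 and 303 CPM in IFN-gamma and 367, 388 and 386 CPM in PBS libraries of sgNTC cells, with an interaction of 0.59 ± 0.14 (adjusted p = 0.036). Its IFN-gamma libraries lay below the PBS libraries in sgNTC cells and above them in Ifngr1-KO cells, and the call was kept in 6 of the 12 fits. Cd47, the ligand that restrains engulfment, and the receptor ligands Nectin2 and Pvr had uncalled interactions of -0.19, 0.03 and -0.18.

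None of 10 tested chemokines was called. Their median interaction was -0.13, and Cxcl12, Cx3cl1 and Cxcl16, the most abundant, had values of -0.20, -0.11 and -0.21. Cxcl10, a chemokine known to be induced by IFN-gamma and named after its values were seen, was at 1.55, 1.34 and 1.07 CPM in IFN-gamma and 0.887, 1.02 and 1.22 CPM in PBS libraries of Ifngr1-KO cells, against 2.72, 4.48 and 3.11 CPM in IFN-gamma and 2.75, 2.39 and 2.63 CPM in PBS libraries of sgNTC cells. Its libraries overlapped between treatments in sgNTC cells, and its interaction was -0.07 ± 0.42 (adjusted p = 0.973).

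Among IFIT, IFITM and other antiviral effectors 5 of 24 tested genes had a called negative interaction and 0 a positive one, with a list median of -0.56. Rtp4, an interferon-inducible antiviral protein, was at 4.92, 5.98 and 6.49 CPM in IFN-gamma and 5.37, 7.33 and 5.81 CPM in PBS libraries of Ifngr1-KO cells, against 36.8, 30.3 and 43.4 CPM in IFN-gamma and 10.7, 11.7 and 16.1 CPM in PBS libraries of sgNTC cells. Its interaction was -1.62 ± 0.23 (adjusted p = 9.41e-05). Ifit2, which binds viral RNA, was at 0.668, 0.734 and 0.555 CPM in IFN-gamma and 0.887, 0.868 and 0.993 CPM in PBS libraries of Ifngr1-KO cells, against 15.7, 19.5 and 25.6 CPM in IFN-gamma and 9.47, 6.88 and 8.44 CPM in PBS libraries of sgNTC cells. The lines differed in PBS without overlap, and the interaction was -1.79 ± 0.30 (adjusted p = 0.000712). In Ifngr1-KO cells every library was under 1 CPM and those with IFN-gamma lay below those with PBS. This uncalled fall enters the value. Xaf1, a pro-apoptotic factor, and Ifitm3, which blocks virus entry, followed with -1.49 ± 0.23 (adjusted p = 0.000256) and -0.62 ± 0.13 (adjusted p = 0.00902). The fifth was Ifi44, with -1.82 ± 0.42. Ifi44 kept its call in 5 of the 12 fits that each left out 1 ULA library, and the list had 3 calls without PBS replicate 2 of the sgNTC line. Trim25, an E3 ligase of the RNA-sensing pathway, was the most abundant uncalled member, at -0.27 ± 0.08 (adjusted p = 0.08).

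Of 19 nucleic acid sensors and OAS enzymes, 5 had a called negative interaction and 0 a positive one, with a median of -0.47. Eif2ak2, the kinase PKR that senses double-stranded RNA, was at 63.3, 67.9 and 66.8 CPM in IFN-gamma and 72.5, 67.5 and 65.4 CPM in PBS libraries of Ifngr1-KO cells, against 86.3, 89.3 and 99.8 CPM in IFN-gamma and 63.8, 61.6 and 67.97 CPM in PBS libraries of sgNTC cells. Its interaction was -0.56 ± 0.10 (adjusted p = 0.000928). The RNA sensors Ddx58 and Ifih1, encoding RIG-I and MDA5, had interactions of -0.65 ± 0.12 (adjusted p = 0.00253) and -0.54 ± 0.12 (adjusted p = 0.0142). Oasl2, an OAS-like protein, had one of -1.31 ± 0.22 (adjusted p = 0.00341). Zbp1, a sensor of Z-form nucleic acid that can start necroptosis, was at 0, 0.315 and 0.238 CPM in IFN-gamma and 0.313, 0.153 and 0.102 CPM in PBS libraries of Ifngr1-KO cells, against 7.11, 3.38 and 8.77 CPM in IFN-gamma and 0.423, 0.221 and 0.314 CPM in PBS libraries of sgNTC cells. Its interaction of -4.34 ± 0.98 (adjusted p = 0.0191) rested on 24 counts in IFN-gamma and 22 counts in PBS libraries of Ifngr1-KO cells. Its call and that of Ifih1 were lost without PBS replicate 1 of the Ifngr1-KO line, IFN-gamma replicate 3 or PBS replicate 2 of the sgNTC line, and the list then had 3 calls in each case. Mavs, the adaptor of the RNA sensors, had -0.05, Adar -0.22 and Oasl1 -0.19, none called.

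In the list of ISG15 conjugation and PARP genes 8 of 16 had a called negative interaction and 0 a positive one, with a median of -0.63. Uba7, the enzyme that activates ISG15 for conjugation, was at 21.98, 21.5 and 19.9 CPM in IFN-gamma and 22.6, 20.7 and 24.8 CPM in PBS libraries of Ifngr1-KO cells, against 48.1, 36.9 and 46.4 CPM in IFN-gamma and 22.04, 21.4 and 22.7 CPM in PBS libraries of sgNTC cells. Its interaction was -1.09 ± 0.16 (adjusted p = 0.000113). Herc6, the ligase of this system in mice, had -1.04 ± 0.16 (adjusted p = 0.000285), and Isg15 itself -1.06 ± 0.24 (adjusted p = 0.0176). Parp14, an ADP-ribosyltransferase, was at 12.5, 14.4 and 12.5 CPM in IFN-gamma and 13.3, 14.1 and 14.5 CPM in PBS libraries of Ifngr1-KO cells, against 55.3, 51.5 and 72.4 CPM in IFN-gamma and 27.2, 23.8 and 25.3 CPM in PBS libraries of sgNTC cells, with an interaction of -1.32 ± 0.20 (adjusted p = 0.000256). Parp12, Parp9, Dtx3l and Rnf213 were the other 4, with interactions of -0.64, -0.72, -0.81 and -0.65. The abundant members Zc3hav1, Helz2 and Parp10 had -0.11, -0.35 and -0.24, without a call.

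Of 13 HIN-200, Sp100 and Samhd1 genes 4 had a called negative interaction, with a list median of -0.62. Samhd1 was at 109, 116 and 105 CPM in IFN-gamma and 105, 112 and 107 CPM in PBS libraries of Ifngr1-KO cells, against 145, 122 and 146 CPM in IFN-gamma and 87.3, 89.1 and 88.3 CPM in PBS libraries of sgNTC cells. In PBS it was higher in Ifngr1-KO than in sgNTC cells, unlike most of the called interferon genes, and with IFN-gamma the sgNTC libraries were the highest. Its interaction was -0.62 ± 0.09 (adjusted p = 9.41e-05). The HIN-200 genes Ifi203, Mndal and Ifi204 had interactions of -1.09 ± 0.18 (adjusted p = 0.00077), -0.86 ± 0.16 (adjusted p = 0.00475) and -0.44 ± 0.12 (adjusted p = 0.0446). Pml, the organiser of nuclear bodies, had -0.12, Ifi211 -0.33 and Sp100 -0.72, none called.

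Of the death, complement and NF-kB lists only the first held a call, where 1.33% of all tested genes were called. Of 24 death-pathway genes the interaction was called for Casp12 alone. This inflammatory caspase was at 14.9, 17.02 and 13.5 CPM in IFN-gamma and 15.2, 16.6 and 14.8 CPM in PBS libraries of Ifngr1-KO cells, against 31.4, 26.4 and 30.3 CPM in IFN-gamma and 18.9, 16.8 and 15.2 CPM in PBS libraries of sgNTC cells, with an interaction of -0.83 ± 0.17 (adjusted p = 0.00567) that kept its call in all 12 fits with 1 ULA library left out. Mcl1, a survival factor, and Gsdmd, a pore former, had interactions of -0.03 and -0.17. None of 15 complement and 17 NF-kB genes was called, with medians of -0.23 and 0.02. C1s1, a complement protease, had -0.54 ± 0.15 (adjusted p = 0.0811), and Rela, an NF-kB subunit, 0.17 ± 0.07 (adjusted p = 0.239).

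**Figure D3:**
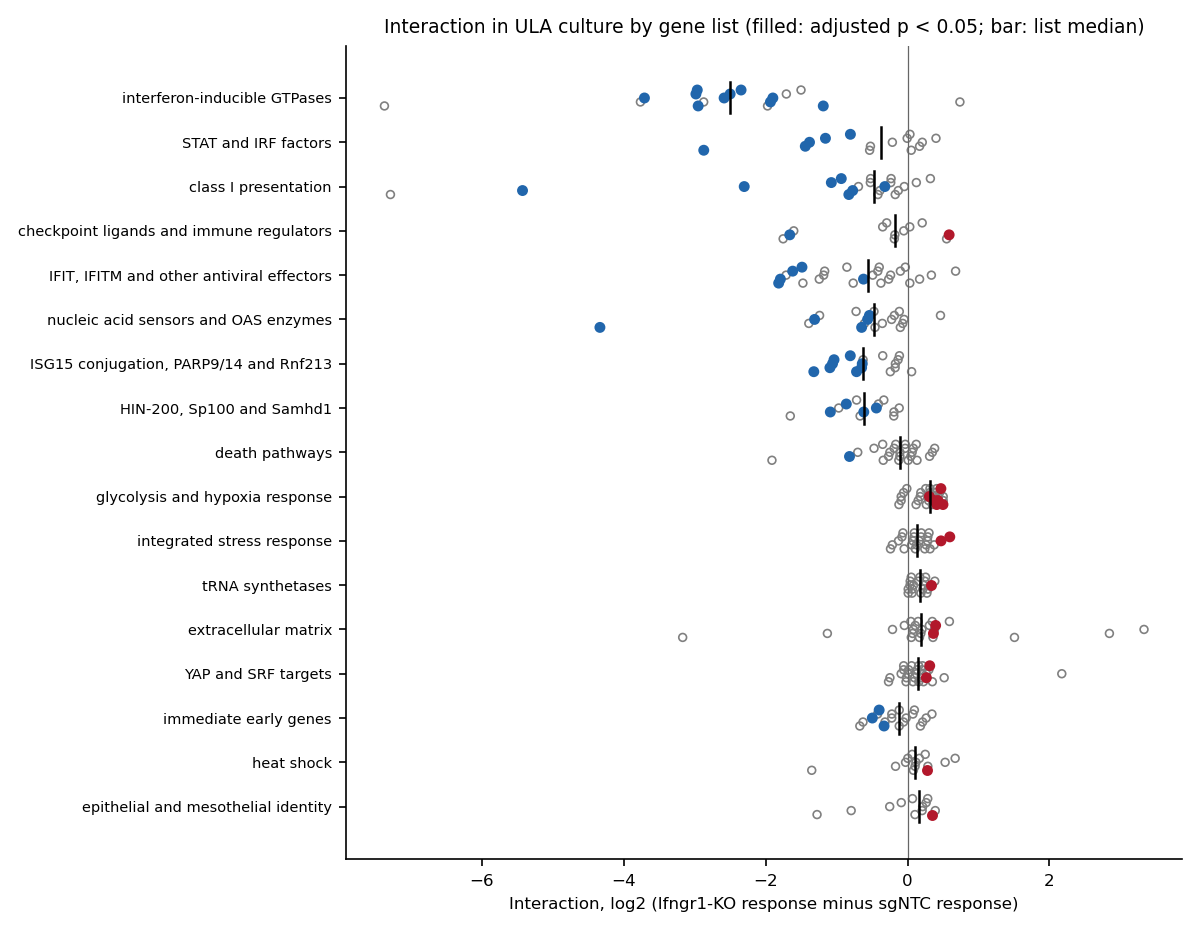
Interaction (log2, Ifngr1-KO response minus sgNTC response) of each tested member of the 17 lists with at least 1 call; filled points were called, open points were not, and the black bar is the list median. The GTPases have a median of -2.50, and the glycolysis and hypoxia list one of 0.32.

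Of the 71 negative calls outside the interferon lists, 40 had a called response in sgNTC cells, where 2.05% of all tested genes did so. In Ifngr1-KO cells no gene of any kind was called. Responses of the lines had opposite signs for 69 of the 71, and that of Ifngr1-KO cells was the larger in size for 19. All 3 IFN-gamma libraries of Ifngr1-KO cells lay below all 3 PBS libraries for 37 of the 71, where 4.79% of all tested genes did. The interaction that chose these genes counts the same libraries. The most negative of the 71 belonged to Olfr56 and Gm12185, at -3.71 ± 0.69 and -2.89 ± 0.50, named after their values were seen. The annotated span of Olfr56 (chr11:48978889-49135387) contains those of Ifi47 (chr11:49076587-49096974), Tgtp1 (chr11:48985327-48994172) and Tgtp2 (chr11:49057194-49064206). The span of Gm12185 (chr11:48904656-48992226) overlaps that of Tgtp1, so reads of these genes may not be told apart. Mpeg1, which encodes a pore-forming protein of phagocytes and was chosen in the same way, was at 17.4, 20.4 and 17.5 CPM in IFN-gamma and 20.97, 17.6 and 18.4 CPM in PBS libraries of Ifngr1-KO cells, against 95.03, 62.5 and 95.8 CPM in IFN-gamma and 29.5, 29.97 and 33.02 CPM in PBS libraries of sgNTC cells. Its interaction was -1.50 ± 0.22 (adjusted p = 0.000753). Of the 71, 42 had an interaction below 0.5 in size. Rpl23, Luc7l2, Tra2a and Soat1 are named from them after their values were seen. Rpl23, a ribosomal protein gene, was at 245, 206 and 257 CPM in IFN-gamma and 286, 278 and 250.2 CPM in PBS libraries of Ifngr1-KO cells, against 208, 239.8 and 245 CPM in IFN-gamma and 195, 188 and 199 CPM in PBS libraries of sgNTC cells, with an interaction of -0.45 ± 0.10 (adjusted p = 0.0221). The splicing factors Luc7l2 and Tra2a had interactions of -0.39 ± 0.08 (adjusted p = 0.005) and -0.32 ± 0.07 (adjusted p = 0.00849). Soat1, which esterifies cholesterol, was at 449, 470.4 and 443 CPM in IFN-gamma and 500.2, 492 and 484 CPM in PBS libraries of Ifngr1-KO cells, against 2089, 1982 and 2007 CPM in IFN-gamma and 1714, 1707 and 1590 CPM in PBS libraries of sgNTC cells. Its interaction of -0.39 ± 0.06 was small beside the difference in level between the lines.

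A call was kept in every fit that left out 1 ULA library for 15 of the 71 and for 31 of the 45. Among 19 immediate early genes 3 were called, all negative, where 0.793% of all tested genes had a negative call. Btg2, Klf6 and Ier2 had interactions of -0.40 ± 0.09, -0.33 ± 0.08 and -0.50 ± 0.12. Leaving out PBS replicate 1 of the Ifngr1-KO line or PBS replicate 2 of the sgNTC line left 0 of these calls, and over all 12 fits Btg2, Klf6 and Ier2 kept theirs in 9, 5 and 4. Without IFN-gamma replicate 2 of the Ifngr1-KO line the list had 4 negative calls and 1 positive. Fosl2, Ier3 and Fos had -0.02, -0.12 and -0.42.

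The 79 positive calls were mostly small. Of these, 44 had a called response in sgNTC cells, where 2.05% of all tested genes did so. No gene of any kind was called in Ifngr1-KO cells. Responses of the lines had opposite signs for 77 of the 79, and for 18 that of Ifngr1-KO cells was the larger in size. For 45 of the 79, all 3 IFN-gamma libraries of Ifngr1-KO cells lay above all 3 PBS libraries, where 7.52% of all tested genes did. These libraries also enter the interaction by which the genes were called. Glycolysis and hypoxia genes held the most positive calls of any list, with 6 called of 28 tested and 0 of them negative. The list median was 0.32, and 0.54% of all tested genes had a positive call. Pkm, the pyruvate kinase that ends glycolysis, was at 4605, 4745 and 4636 CPM in IFN-gamma and 4443, 4660 and 4694 CPM in PBS libraries of Ifngr1-KO cells, against 3178, 2659 and 3105 CPM in IFN-gamma and 3809, 4147 and 3917 CPM in PBS libraries of sgNTC cells. All 3 sgNTC libraries with IFN-gamma were below the sgNTC libraries with PBS, and the Ifngr1-KO libraries of both treatments overlapped. Its interaction was 0.43 ± 0.08 (adjusted p = 0.00233), from 0.02 in Ifngr1-KO and -0.41 in sgNTC cells. Aldoa, an aldolase, was at 2204, 2324 and 2148 CPM in IFN-gamma and 2046, 2146 and 2178 CPM in PBS libraries of Ifngr1-KO cells, against 1387, 1237 and 1358 CPM in IFN-gamma and 1596, 1729 and 1728 CPM in PBS libraries of sgNTC cells, with an interaction of 0.41 ± 0.08 (adjusted p = 0.00343). Eno1, Pfkl, Gpi1 and Pgk1, further enzymes of glycolysis, had interactions of 0.38 ± 0.09, 0.47 ± 0.11, 0.50 ± 0.12 and 0.31 ± 0.08. Ldha, Tpi1 and Ndrg1, the most abundant uncalled members, had 0.39, 0.32 and 0.45. Only Pkm and Aldoa kept their call in all 12 fits with 1 ULA library left out, and the list had between 2 and 9 calls over these fits, 2 without PBS replicate 1 of the Ifngr1-KO line and 3 without PBS replicate 2 of that line or without IFN-gamma replicate 2 or PBS replicate 2 of the sgNTC line.

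In the integrated stress response 2 of 24 tested genes were called, both positive, where 0.54% of all tested genes had a positive call. Atf5, a stress-induced transcription factor, was at 26.9, 32.2 and 33.2 CPM in IFN-gamma and 26.3, 28.2 and 29.8 CPM in PBS libraries of Ifngr1-KO cells, against 23.4, 18.01 and 26.4 CPM in IFN-gamma and 28.4, 32.6 and 32.97 CPM in PBS libraries of sgNTC cells, with an interaction of 0.60 ± 0.14 (adjusted p = 0.0292). Slc7a5, a transporter of large neutral amino acids, was at 478, 611 and 507 CPM in IFN-gamma and 499, 486 and 509.8 CPM in PBS libraries of Ifngr1-KO cells, against 189, 169.6 and 198 CPM in IFN-gamma and 213, 270.5 and 240.2 CPM in PBS libraries of sgNTC cells. Its level was higher in Ifngr1-KO cells in either treatment, and its interaction was 0.47 ± 0.11 (adjusted p = 0.0257). Neither call was kept without PBS replicate 1 or replicate 2 of the Ifngr1-KO line, or without PBS replicate 2 of the sgNTC line, and over the 12 fits Atf5 kept its call in 7 and Slc7a5 in 8. Slc38a2, Slc3a2 and Psat1 had 0.10, 0.30 and 0.24. Of 19 tRNA synthetases Yars alone was called, with 0.34 ± 0.09 (adjusted p = 0.0439), and under 2 other scalings, median ratio and library totals, it was not. Its call was kept in 5 of the 12 fits. Mthfd1l, a mitochondrial one-carbon enzyme, had an interaction of 0.48 ± 0.11 (adjusted p = 0.0193).

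Further positive calls were Col4a2 and Col4a1, chains of the basement membrane collagen IV, of 23 matrix genes, with 0.40 ± 0.09 and 0.37 ± 0.09. Plec and Myh9, a cytoskeletal linker and a myosin, were called of 28 YAP and SRF targets, with 0.31 ± 0.07 and 0.27 ± 0.06. Hsp90ab1, a chaperone, was called of 14 heat shock genes with 0.28 ± 0.06, and Vim, an intermediate filament, of 12 epithelial and mesothelial genes with 0.35 ± 0.08. In the order given, these lists held 21, 26, 13 and 11 tested members without a call. Of all tested genes, 0.54% had a positive call. With each ULA library left out in turn, calls were kept in 11 of 12 fits for Col4a2 and Hsp90ab1, in 9 for Plec and Vim, in 8 for Myh9 and in 4 for Col4a1. Without PBS replicate 2 of the sgNTC line 0 matrix genes and 0 YAP and SRF targets were called, and the targets also had 0 calls without IFN-gamma replicate 1 or PBS replicate 2 of the Ifngr1-KO line. The call of Hsp90ab1 was lost without PBS replicate 1 of the Ifngr1-KO line, and that of Vim without this library, IFN-gamma replicate 2 or PBS replicate 2 of the sgNTC line. Arf6, a GTPase of membrane traffic, was at 169, 159.8 and 173 CPM in IFN-gamma and 146, 154 and 158 CPM in PBS libraries of Ifngr1-KO cells, against 110.4, 97.97 and 112 CPM in IFN-gamma and 137, 139 and 135 CPM in PBS libraries of sgNTC cells. The interaction of 0.49 ± 0.09 (adjusted p = 0.00114) kept its call in all 12 fits with 1 ULA library left out.

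Wnt7b, a secreted Wnt ligand, had the largest positive interaction of the called genes. It was at 6.32, 8.26 and 7.598 CPM in IFN-gamma and 9.21, 7.89 and 8.099 CPM in PBS libraries of Ifngr1-KO cells, against 0.0495, 0.0512 and 0.145 CPM in IFN-gamma and 0.197, 0.501 and 0.604 CPM in PBS libraries of sgNTC cells. The value of 2.09 ± 0.53 (adjusted p = 0.0372) came from a response of -2.27 ± 0.48 in sgNTC cells, whose 3 libraries with IFN-gamma held 10 counts in all and whose PBS libraries held 63. The call was kept in 5 of 12 fits that each left out 1 ULA library. Rcor2, a corepressor subunit, Metrnl, a secreted factor, and Smox, which oxidises spermine, had interactions of 0.69 ± 0.16 (adjusted p = 0.0213), 0.54 ± 0.12 (adjusted p = 0.0176) and 0.49 ± 0.11 (adjusted p = 0.0193). Grhpr, an enzyme that reduces glyoxylate, had one of 0.45 ± 0.11 (adjusted p = 0.0239). Outside the mouse genes, the transgenes PuroR, a selection marker, and RFP, a fluorescent protein, were called too, named after their values were seen. PuroR was at 199.9, 219 and 204 CPM in IFN-gamma and 174, 192 and 191 CPM in PBS libraries of Ifngr1-KO cells, against 124, 107 and 119 CPM in IFN-gamma and 146, 152 and 148 CPM in PBS libraries of sgNTC cells. Its interaction was 0.51 ± 0.08 (adjusted p = 0.000472). RFP had an interaction of 0.35 ± 0.09 (adjusted p = 0.0359) and kept its call in 5 of 12 fits that each left out 1 ULA library.

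No interaction was called in the lists of ER chaperones (23 tested), cholesterol and fatty acid synthesis (27), DNA replication (30), mitosis (26), CDK inhibitors and D-type cyclins (12), integrins (12), iron and glutathione (21), lysosome and autophagy (20) and mitochondrially encoded genes (13). Their medians lay between -0.09 and 0.17. Hspa5, the main ER chaperone, had 0.09 with a 95% interval of -0.06 to 0.23, and Pcna, the replication clamp, 0.08 with an interval of -0.08 to 0.24. Mki67, a marker of cycling cells, had 0.08 (-0.11 to 0.27). Itgb1, the common integrin chain, had 0.01 (-0.12 to 0.14). Trp53, disrupted in both lines, still gave counts and averaged 17.8 ± 0.974 CPM in IFN-gamma and 19.4 ± 3.103 CPM in PBS libraries of Ifngr1-KO cells, against 17.8 ± 1.05 CPM and 14.7 ± 1.21 CPM in sgNTC cells (SD, n = 3 each). Its interaction of -0.40 ± 0.13 (adjusted p = 0.134) did not pass. None of the markers of macrophages, lymphocytes, endothelium, fibroblasts or erythroid cells that could be tested had a called interaction.

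The lines also differed before IFN-gamma. In PBS the 3 Ifngr1-KO libraries lay below the 3 sgNTC libraries for 28 of the 45 called interferon genes and above them for 4, where 30.8% and 29.0% of all tested genes did so. Rnf213, a large ubiquitin ligase named after its values were seen, was at 219.6, 244 and 223 CPM in IFN-gamma and 246, 208 and 226 CPM in PBS libraries of Ifngr1-KO cells, against 937, 788 and 948 CPM in IFN-gamma and 606, 552 and 529 CPM in PBS libraries of sgNTC cells. Its response was 0.02 in Ifngr1-KO and 0.66 in sgNTC cells, and its PBS level differed more between the lines than it did between treatments in either line. For Irf1 the order in PBS was the reverse, with each Ifngr1-KO library above each sgNTC library. The part of these differences in the interaction was not tested.

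In adherent culture the same interaction, from 12 other libraries in the same fit, was called for 19 genes (0.13%), 14 negative (0.0957%) and 5 positive (0.0342%). Of the 116 negative calls in ULA culture 10 were also called negative in adherent culture, and of the 79 positive calls 2 were called positive. The median adherent interaction was -0.29 over the 116 and 0.19 over the 79. Irf1 had -1.44 ± 0.13 in ULA and -0.56 ± 0.13 in adherent culture, and Stat2 -1.38 ± 0.14 and -0.35 ± 0.15. Samhd1 had -0.62 ± 0.09 in ULA and -0.04 ± 0.09 in adherent culture. Irf9, Psmb10, Erap1, Ifi203 and Casp12 were called in both cultures. Erap1 had -0.77 ± 0.11 in ULA and -0.73 ± 0.11 in adherent culture, and Casp12 -0.83 ± 0.17 and -0.92 ± 0.19.

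The difference between the 2 interactions was itself tested, and 0 genes were called by edgeR's quasi-likelihood test (0.0%), with 716 (4.9%) at an unadjusted p under 0.05. DESeq2 called 4, and edgeR called 5 without IFN-gamma replicate 2 of the sgNTC line in ULA culture. The smallest p belonged to Stat2, whose difference (ULA minus adherent) was -1.03 ± 0.21 (adjusted p = 0.332). Irf1 and Samhd1 followed with -0.89 ± 0.18 and -0.57 ± 0.13, at the same adjusted p. No gene passed this test of the difference by the quasi-likelihood test. A difference between cultures would also carry the removal of dead cells, which was done for ULA wells.

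**Figure D4:**
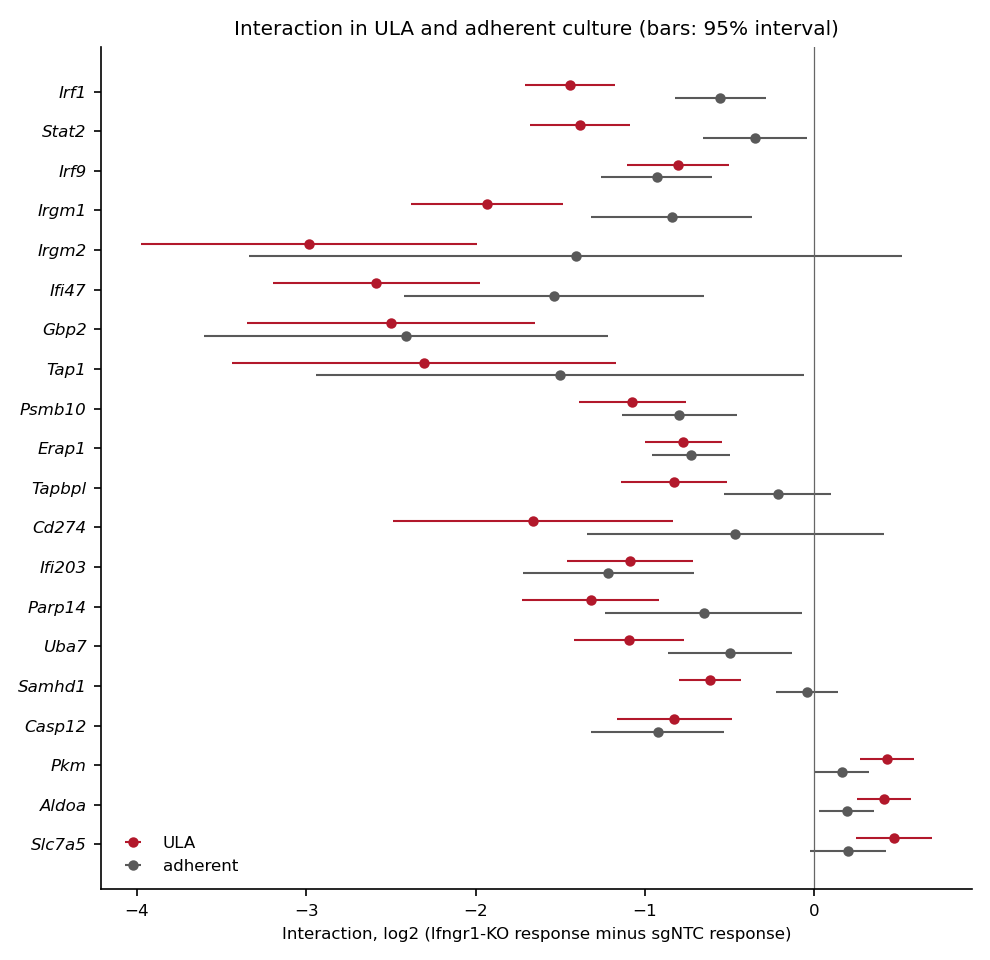
Interaction (log2) with 95% interval in ULA culture (red) and adherent culture (grey) for 20 genes. Irf1, Stat2 and Samhd1 lie further from 0 in ULA culture without a called difference, and Erap1, Ifi203 and Casp12 have similar values in both.

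The number of calls depended on single libraries. Leaving out each of the 12 ULA libraries in turn gave 75 to 280 called genes, 52 to 124 negative and 23 to 156 positive. Without IFN-gamma replicate 2 of the Ifngr1-KO line 280 genes were called, 124 of them negative. Without IFN-gamma replicate 2 of the sgNTC line 130 were called, 88 of them negative. The fewest calls came without PBS replicate 1 of the Ifngr1-KO line, with 75, and without PBS replicate 2 of the sgNTC line, with 78. The interferon lists kept 32 of their 46 calls in each of these fits. Without IFN-gamma replicate 2 of the Ifngr1-KO line, there were 5 calls among STAT and IRF factors, 6 among antiviral effectors, 5 among nucleic acid sensors, 9 in the ISG15 and PARP list, 5 in the HIN-200 list and 6 in the glycolysis list. Without IFN-gamma replicate 2 of the sgNTC line, these lists had 5, 5, 5, 8, 3 and 3 calls in the same order. Of all calls, 46 of the 116 negative and 13 of the 79 positive were kept in all 12 fits. Irf1, Stat2, Irgm1, Ifi47, Gbp2, Psmb9, Psmb10, Erap1, B2m and Samhd1 are among the 46, and Pkm, Aldoa, Arf6 and Eef2, a translation factor, among the 13. Of 61 called genes picked by the rule for named genes, 31 lost their call without at least 1 library. Among genes given above, Irf7, Isg15, Ifitm3, Ifi204, Tapbp, Igtp, Tgtp2 and Gbp9 lost their call in at least 1 of the 12 fits. So did Rpl23, Tra2a, Rcor2, Metrnl, Smox, Grhpr and Mthfd1l.

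**Figure D5:**
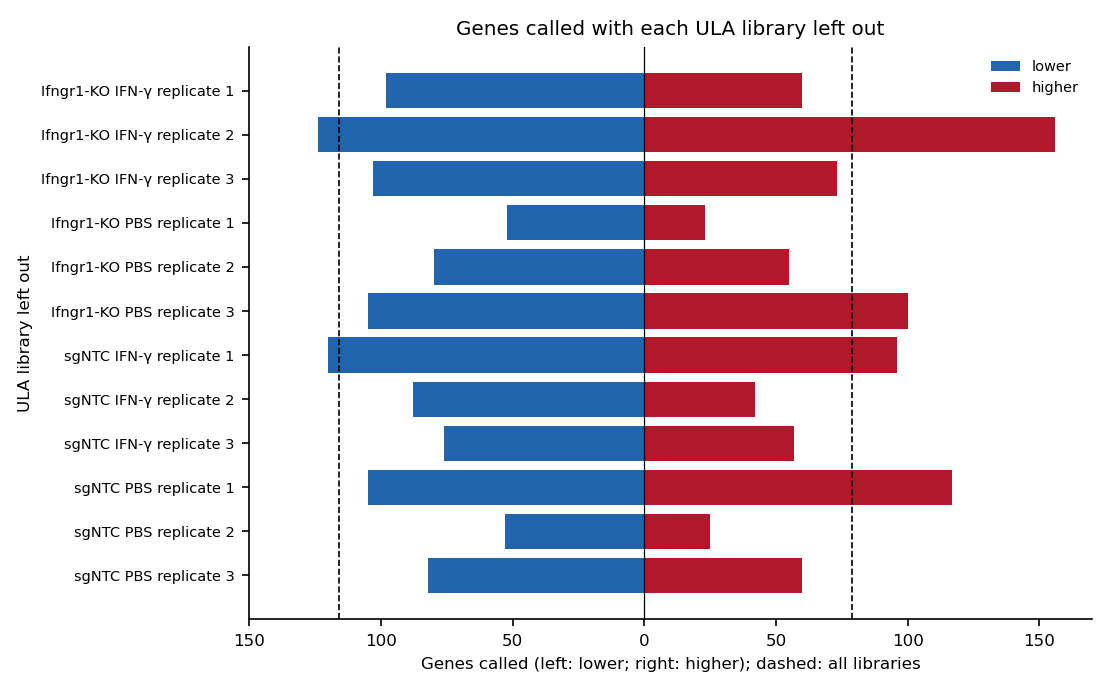
Genes called negative (left, blue) and positive (right, red) in the interaction when the ULA library named on the vertical axis is left out; dashed lines mark the 116 and 79 calls with all libraries. The counts run from 52 to 124 negative and from 23 to 156 positive.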

How the data were processed

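Poly-A RNA was sequenced from 24 cultures, of which the 12 in ultra-low attachment wells are described. For each library the authors deposited a table of raw counts per gene. The submitters' processing notes name Trimmomatic, HISAT2, SAMtools, featureCounts of Subread 2.1.1 and DESeq2, with the genome build GRCm38 (mm10). Per the file headers, exons were counted in paired-end mode, unstranded, and mates were counted singly, so a fragment can add 2 counts. Of counts from 1 to 20, 61.3% to 67.2% were even. Overlapping genes and near-identical copies are less certain. The tables list 31062 features, 9 of them transgenes, and 30934 were paired with a symbol.

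The filterByExpr function of edgeR, set to a minimum count of 10, kept 14622 genes, which held 99.97% or more of each library's counts. A mean for each of the 8 groups was fitted to all 24 libraries with TMM scaling and robust quasi-likelihood dispersion (edgeR 4.0.16, R 4.3.3), with 16 residual degrees of freedom and no covariates. The interaction, the response within each line, the adherent interaction and the difference between both interactions were tested two-sided, with Benjamini-Hochberg adjustment within each comparison and a threshold of 0.05. Values after ± are standard errors of the fitted contrast, unless an SD is named. CPM were scaled by the TMM-adjusted library size. Alternatives were median-ratio size factors, library totals, DESeq2 1.42.0, no filter, the 12 libraries alone, a replicate block, counts halved and rounded, and each ULA library left out. The script was tested on simulated data.

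The comparison, the 36 gene lists (675 entries, 7 without a feature) and the rule for named genes were chosen with earlier results of these data known. The rule names the 12 largest called interactions each way among genes that average 5 CPM or more in 1 ULA group, up to 4 called members of each list with the smallest adjusted p, the 3 most abundant uncalled members of each list, and 8 genes of the pathway. Genes named outside it are marked as chosen after their values were seen, or complete a count of calls. A few genes that the rule names are not reported here. Promoters were matched by symbol to RefSeq sequences on GRCm38.p6, and gene positions come from GENCODE M21 on GRCm38.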

Additional observations from a re-analysis of the deposited data

Results flagged for a closer look

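All results here were noted because the response to IFN-gamma differed between the lines by a test of the difference itself, the interaction. It was called for 195 genes, 116 negative and 79 positive. Among the genes with the largest called values, the negative ones included Psmb9 (-5.43), Zbp1 (-4.34), Tgtp2 (-3.71), Irgm2 (-2.98), Igtp (-2.96), Gbp6 (-2.95), Ifi47 (-2.59), Gbp2 (-2.50), Tgtp1 (-2.35), Tap1 (-2.30) and Irgm1 (-1.93), in log2. All of these are interferon-inducible genes of the lists. The positive ones were Wnt7b (2.09), Rcor2 (0.69), Atf5 (0.60), Lgals3 (0.59), Metrnl (0.54), Gpi1 (0.50), Smox (0.49), Arf6 (0.49), Mthfd1l (0.48), Slc7a5 (0.47), Pfkl (0.47) and Grhpr (0.45), in log2. Wnt7b stands apart from these in size and rests on 10 counts in the 3 sgNTC libraries with IFN-gamma. Groups of 3 libraries were too small for a test of single outlying values.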

How the results depend on the processing

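The interaction was called for 467 genes by DESeq2 (255 negative, 212 positive) and for 524 with no filter on low counts (220 negative, 304 positive), against 195 (116 negative, 79 positive). Library totals gave 151 negative calls of 206, 73.3%, against 59.5% of 195, and median-ratio size factors 124 of 194. The median interaction of all tested genes lay between -0.014 and 0.0116 under these scalings. The 12 libraries alone gave 221 calls, and halved counts 219. With each ULA library left out there were 75 to 280 calls, 52 to 124 negative and 23 to 156 positive. All 46 calls of the interferon lists were shared under the other scalings, DESeq2 and no filter, 39 with the 12 libraries alone and at least 32 with a library left out. IFN-gamma against PBS was called in Ifngr1-KO cells for 1 gene by DESeq2, 33 with no filter, 1 with its 6 libraries alone (an alternative chosen after seeing the data) and 0 to 5 with a library left out, against 0. In sgNTC cells it was called for 482 by DESeq2, 652 with no filter and 127 to 346 with a library left out, against 300. The difference between cultures was called for 4 genes by DESeq2, 41 with no filter and 0 to 5 with a library left out, against 0. Each of the 195 called genes kept the sign of its interaction in every fit that left out 1 ULA library. The cause of the shifts in these counts was not tested. Equal replicate numbers gave no sign of pairing: over 18 pairs the correlations of deviations ran from -0.0612 to 0.0603. Unequal numbers were not compared, so these values cannot settle whether samples shared an origin. The fit with a replicate block called 207 genes, 185 of them shared. Among the named genes Cd274 lost its call under the block (adjusted p = 0.0516). Depth limits genes with few counts in a group, such as Psmb9, Zbp1 and Iigp1 in Ifngr1-KO cells and Wnt7b in sgNTC cells.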

Other observations

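A few interferon genes had higher values with IFN-gamma in Ifngr1-KO cells too, without a call. Ifit3, an antiviral effector, was at 0.406, 0.944 and 0.357 CPM in IFN-gamma and 0.157, 0.102 and 0.102 CPM in PBS libraries of Ifngr1-KO cells. Its response there was 2.19 ± 0.52 (adjusted p = 0.475), from 71 counts with IFN-gamma and 14 with PBS. In sgNTC cells it was at 9.71, 10.9 and 16.1 CPM with IFN-gamma and 3.66, 2.61 and 3.92 CPM with PBS. Usp18, which removes ISG15 and damps type I interferon signalling, was at 1.89, 2.15 and 1.63 CPM in IFN-gamma and 0.913, 0.536 and 1.22 CPM in PBS libraries of Ifngr1-KO cells. Its response there was 1.08 ± 0.35 (adjusted p = 0.488). Both were chosen after their values were seen, from the 10 of 165 interferon-list genes whose 3 IFN-gamma libraries lay above the 3 PBS libraries in Ifngr1-KO cells (6.06%), where 7.52% of all tested genes did so.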
